A study of Solanum lycopersicum with 2 samples.

Results

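The genes described here are 7 regulators of compound leaf development in tomato (Solanum lycopersicum): the KNOX homeobox genes TKN1 and TKN2, the MYB gene PHANTASTICA, the TCP gene LANCEOLATE, the NAC gene GOBLET, the Aux/IAA gene ENTIRE (IAA9) and the zinc finger gene LYRATE. They were taken as a fixed list of identifiers, with no measured value in the rule, although earlier results of these data were known when it was chosen. All 7 of 7 were among the 34725 gene models of the table. RNA was sequenced from young primary leaf of mature plants of the cultivar Ailsa Craig. One library came from plants labelled SlCycB2 RNAi, in which the B-type cyclin gene SlCycB2 is meant to be silenced, and 1 from plants labelled SlCycB2-OE, in which it is meant to be overexpressed; they are called the RNAi leaf and the OE leaf below. The promoters of the constructs, the number of lines and the number of plants behind each library are not stated in the labels. The level of SlCycB2 itself was not checked here, so how far it was silenced or overexpressed in these libraries is not shown. A library of untransformed plants was not analysed here, so a difference between the libraries cannot be assigned to either manipulation. With 1 library per group there are no replicates, no value below has an error, no test was possible, and each difference describes these libraries only.

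A tomato leaf is divided into leaflets because the margin of the young leaf keeps the ability to form new organs for an extended time. KNOX homeobox proteins prolong that state, TCP proteins of the LANCEOLATE class end it by promoting maturation, and PHANTASTICA belongs to a class of MYB proteins known to keep KNOX genes in check in the leaf. GOBLET marks the boundaries at which leaflets separate, ENTIRE restrains the auxin response between leaflets, and LYRATE promotes leaflet outgrowth. These genes act largely in early primordia, so their transcripts in a whole young leaf depend on the share of such cells as well as on the level per cell, and in bulk tissue fewer cells of a type and less RNA per cell cannot be told apart.

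Levels were given as RPKM, reads mapped to a gene model scaled to its length and to the mapped reads of the library, which are scaled for length and can be set side by side between genes. ENTIRE was the most abundant of the 7 in both libraries and TKN1 the least. In the RNAi leaf the order from high to low was ENTIRE, LANCEOLATE, PHANTASTICA, TKN2, LYRATE, GOBLET and TKN1. In the OE leaf PHANTASTICA stood above LANCEOLATE, and the order was otherwise the same. Without replicates, no neighbours in this order can be said to differ beyond their spread, and LANCEOLATE and PHANTASTICA were close in the RNAi leaf, at 27.42 and 26.03 RPKM. The summed level of the 7 genes was 169.3 RPKM in the RNAi leaf and 225.4 RPKM in the OE leaf. ENTIRE held 64.3% of that sum in the RNAi leaf and 57.3% in the OE leaf, and PHANTASTICA held 15.4% and 23.7%.

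**Figure D1:**
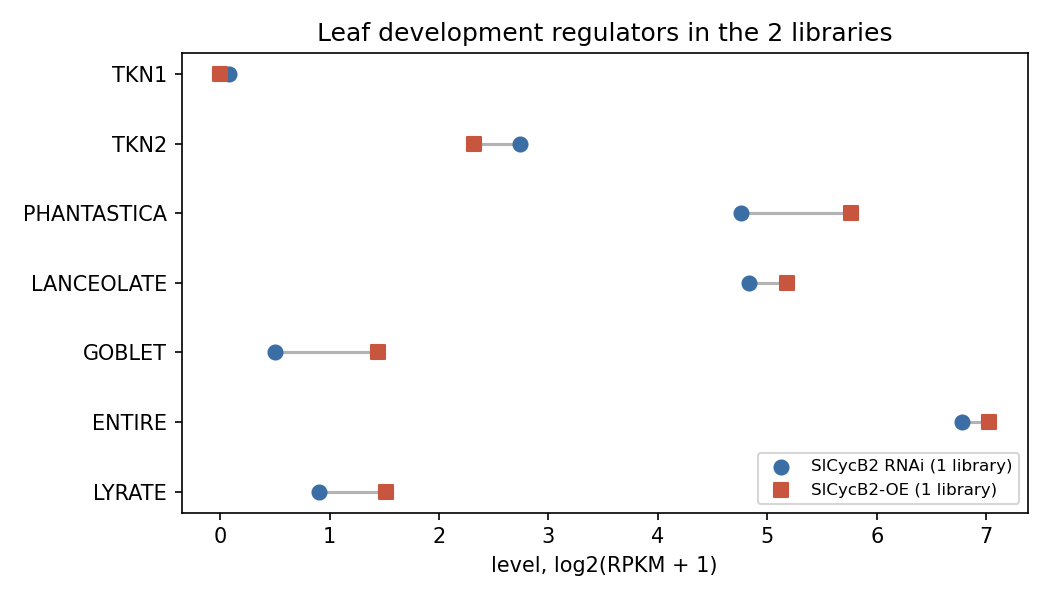
Level of each gene as log2(RPKM + 1) on the horizontal axis, with a circle for the RNAi leaf and a square for the OE leaf, 1 library each. PHANTASTICA, GOBLET and LYRATE show the widest gaps, TKN2 has its square to the left of its circle, and TKN1 lies at or beside 0 in both.

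Differences were expressed as log2((RPKM + 1) / (RPKM + 1)), overexpression over RNAi, a scale that understates differences of low genes. Genes whose mean over both libraries was 1 RPKM or more were compared, and a gene was called apart at 2-fold or more on this scale. Of the 7 genes, 6 reached that mean. The lowest of those inside was GOBLET, with a mean of 1.065 RPKM, and TKN1, with a mean of 0.03 RPKM, was outside. GOBLET and LYRATE were under 1 RPKM in the RNAi leaf and reached the mean through their level in the OE leaf, so their presence among the compared genes favours a higher value there. On this scale 1 of the 6 genes, PHANTASTICA, passed 2-fold with a higher level in the OE leaf, where 2.6% of all 19466 compared genes were, and 0 passed it with a lower level, against 1.92% of all. The 4 genes LANCEOLATE, GOBLET, ENTIRE and LYRATE were higher by less than 2-fold, and TKN2 was lower by less than 2-fold. The median difference of the 6 genes was 0.48, beside 0.13 for all compared genes. In all, 67.8% of the compared genes had a difference above 0, so most genes lean to the OE leaf before any gene is singled out.

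The KNOX genes keep cells in an undetermined state and are best known from the shoot meristem. TKN2 (Solyc02g081120.2.1 on chromosome 2), the tomato counterpart of the Arabidopsis meristem gene SHOOT MERISTEMLESS, was at 5.7 RPKM in the RNAi leaf and 4 RPKM in the OE leaf. It was the one gene of the 6 with a lower level in the OE leaf. The ratio was 0.702 and the log2 difference -0.42, and 7.03% of all compared genes had a difference further below. Among the 500 compared genes nearest in mean RPKM, between 4.63 and 5.07 RPKM, the quartiles of the difference were -0.06 and 0.36, so TKN2 lay under the lower quartile but above the 5th percentile of -0.59. After centring on the median of all compared genes the difference of TKN2 was -0.56. Centring takes the same amount from every gene, so the percentiles move with it and the place of TKN2 among these genes was unchanged.

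TKN1 (Solyc04g077210.2.1 on chromosome 4), the other KNOX gene of the list, was at 0.06 RPKM in the RNAi leaf and was listed at 0 in the OE leaf. A value above 0 needs at least 1 read, so 1 read of this gene model is worth at most 0.06 RPKM in the RNAi leaf, and the remaining value is at the limit of what was counted. No fold is given for TKN1, since it was under the mean of 1 RPKM. TKN2 thus carried nearly all of the KNOX signal among the listed genes in this leaf material.

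PHANTASTICA (Solyc09g010840.1.1 on chromosome 9) encodes a MYB protein also needed for the upper side of the leaf blade. It was at 26.03 RPKM in the RNAi leaf and 53.39 RPKM in the OE leaf. The level was higher in the OE leaf by 27.36 RPKM, which is 2.05 times and 1.01 on the log2 scale of differences, just past the 2-fold limit. The 500 compared genes nearest in mean RPKM, between 35.95 and 43.46 RPKM, had quartiles of -0.06 and 0.24 and a 95th percentile of 0.49. PHANTASTICA lay beyond that percentile, and 5 of these 500 genes, 1%, were at least 2-fold higher. Of all compared genes, 493 had a larger difference, or 2.53%. Its rank by level among all gene models was 4048 in the RNAi leaf and 2156 in the OE leaf, counted from the highest. The call depended on the scaling: the difference was 0.87 after centring on the median of all compared genes and 0.86 when the libraries were scaled by their trimmed mean ratio, both under 2-fold.

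LANCEOLATE (Solyc07g062680.1.1 on chromosome 7), a TCP factor whose activity sets when leaf margin cells mature and which is held down by a microRNA in the young leaf, was at 27.42 RPKM in the RNAi leaf and 35.18 RPKM in the OE leaf. The ratio was 1.28 and the log2 difference 0.35. That was above the upper quartile of 0.26 among the 500 genes nearest in mean RPKM and inside their 95th percentile of 0.58. Of all compared genes, 23.6% had a larger difference. After centring, which moves all genes alike, the difference was 0.21.

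GOBLET (Solyc07g062840.2.1 on chromosome 7), a NAC factor of organ boundaries that is expressed in narrow strips of cells, was low in both libraries. It was at 0.42 RPKM in the RNAi leaf and 1.71 RPKM in the OE leaf. The ratio of these values was 4.07, while the log2 difference with the pseudocount of 1 was 0.93, short of 2-fold. Genes of this level scatter widely: the 500 nearest in mean RPKM had a 5th percentile of -0.91 and a 95th percentile of 1.05, and 28 of them, 5.6%, were at least 2-fold higher. With a pseudocount of 0.1 the difference of GOBLET was 1.80 and with 5 it was 0.31, so its size is set largely by that choice.

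LYRATE (Solyc05g009380.2.1 on chromosome 5), the tomato counterpart of the Arabidopsis gene JAGGED, was likewise low. It was at 0.87 RPKM in the RNAi leaf and 1.86 RPKM in the OE leaf, a ratio of 2.14. The log2 difference was 0.61, above the upper quartile of 0.44 and inside the 95th percentile of 1.02 of the 500 genes nearest in mean RPKM. With a pseudocount of 0.1 it was 1.01, past 2-fold, and with 5 it was 0.22. GOBLET and LYRATE thus had the largest ratios of the 6 compared genes and the lowest levels.

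ENTIRE (Solyc04g076850.2.1 on chromosome 4), an Aux/IAA repressor of auxin-responsive transcription whose loss turns the compound leaf into a nearly simple one, was at 108.8 RPKM in the RNAi leaf and 129.2 RPKM in the OE leaf. Of all gene models, 97.0% had a lower level in the RNAi leaf and 97.3% in the OE leaf. The ratio was 1.19 and the log2 difference 0.25, just above the upper quartile of 0.21 among the 500 genes nearest in mean RPKM. After centring, which moves all genes alike, the difference was 0.11, and after the trimmed mean it was 0.09. As deposited, 35.1% of all compared genes had a larger difference. ENTIRE thus had the smallest log2 difference of the 6 compared genes, although its level differed by 20.42 RPKM.

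**Figure D2:**
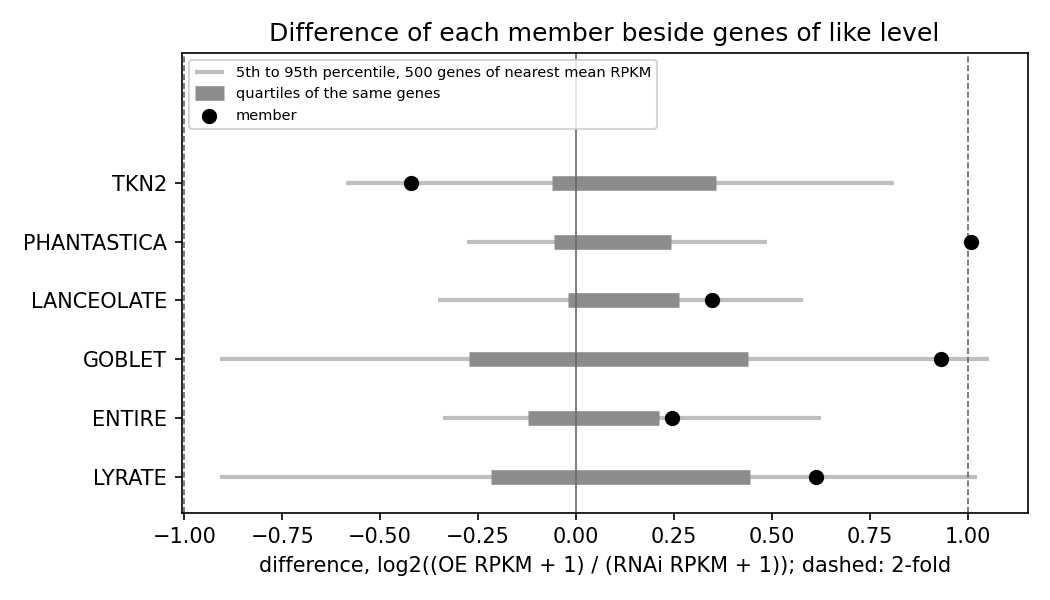
Log2 difference of each compared gene, overexpression over RNAi, on the horizontal axis (points), with the quartiles (thick bars) and the 5th to 95th percentile (thin bars) of the 500 compared genes nearest in mean RPKM; dashed lines mark 2-fold. PHANTASTICA lies outside the thin bar at 1.01, TKN2 lies on the left at -0.42, and the other points are right of their thick bars but inside the thin ones.

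Ratios between members within a library do not depend on how the libraries are scaled to each other. PHANTASTICA stood at 4.57 times the level of TKN2 in the RNAi leaf and 13.3 times in the OE leaf, a change of the ratio by 2.92 times. LANCEOLATE stood at 4.81 times the level of TKN2 in the RNAi leaf and 8.80 times in the OE leaf, a change by 1.83 times. Relative to TKN2, GOBLET changed by 5.80 times, LYRATE by 3.05 times and ENTIRE by 1.69 times. No pseudocount enters these ratios, so values near 0 can give large changes. GOBLET and LYRATE were under 1 RPKM in the RNAi leaf and were compared through their level in the OE leaf, which favours a rise. As TKN2 was the one compared gene with a lower level in the OE leaf, each of these 5 ratios had to be higher there, and none is particular to its pair. PHANTASTICA and LANCEOLATE themselves stood at a ratio of 0.949 in the RNAi leaf and 1.52 in the OE leaf. LANCEOLATE kept nearly the same level relative to ENTIRE, at 0.252 and 0.272. GOBLET stood at 0.483 of the level of LYRATE in the RNAi leaf and 0.919 in the OE leaf, from low values on both sides. These ratios are among 15 possible pairs of the 6 genes, and their size cannot be set against a spread between plants.

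The identifiers next to each gene in identifier order did not show like differences in general. Of the 135 distinct identifiers within 10 places of a member, 95 were compared, with a median difference of 0.06, beside 0.13 for all compared genes. Of the 95, 1 (Solyc09g010890.1.1) was at least 2-fold higher and 0 were at least 2-fold lower, together 1.05%. Of all compared genes, 4.52% were apart in either direction. Solyc09g010890.1.1 lies 5 places from PHANTASTICA, at 0.55 RPKM in the RNAi leaf and 2.8 RPKM in the OE leaf, a log2 difference of 1.29. It is a low gene that was compared through its level in the OE leaf, which favours a higher value there. The 14 compared neighbours of PHANTASTICA had a median difference of 0.05 and ranged from -0.57 to 1.29, and the 14 of TKN2 had a median of 0.03 and ranged from -0.32 to 0.36. TKN2 at -0.42 was thus lower than each of its compared neighbours. The identifier next to GOBLET, Solyc07g062850.2.1, singled out after its value was seen, was at 5.35 RPKM in the RNAi leaf and 10.9 RPKM in the OE leaf, a log2 difference of 0.91. LANCEOLATE and GOBLET are close by identifier on chromosome 7, with 15 identifiers between them, and ENTIRE and TKN1 on chromosome 4, with 35 between them.

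**Figure D3:**
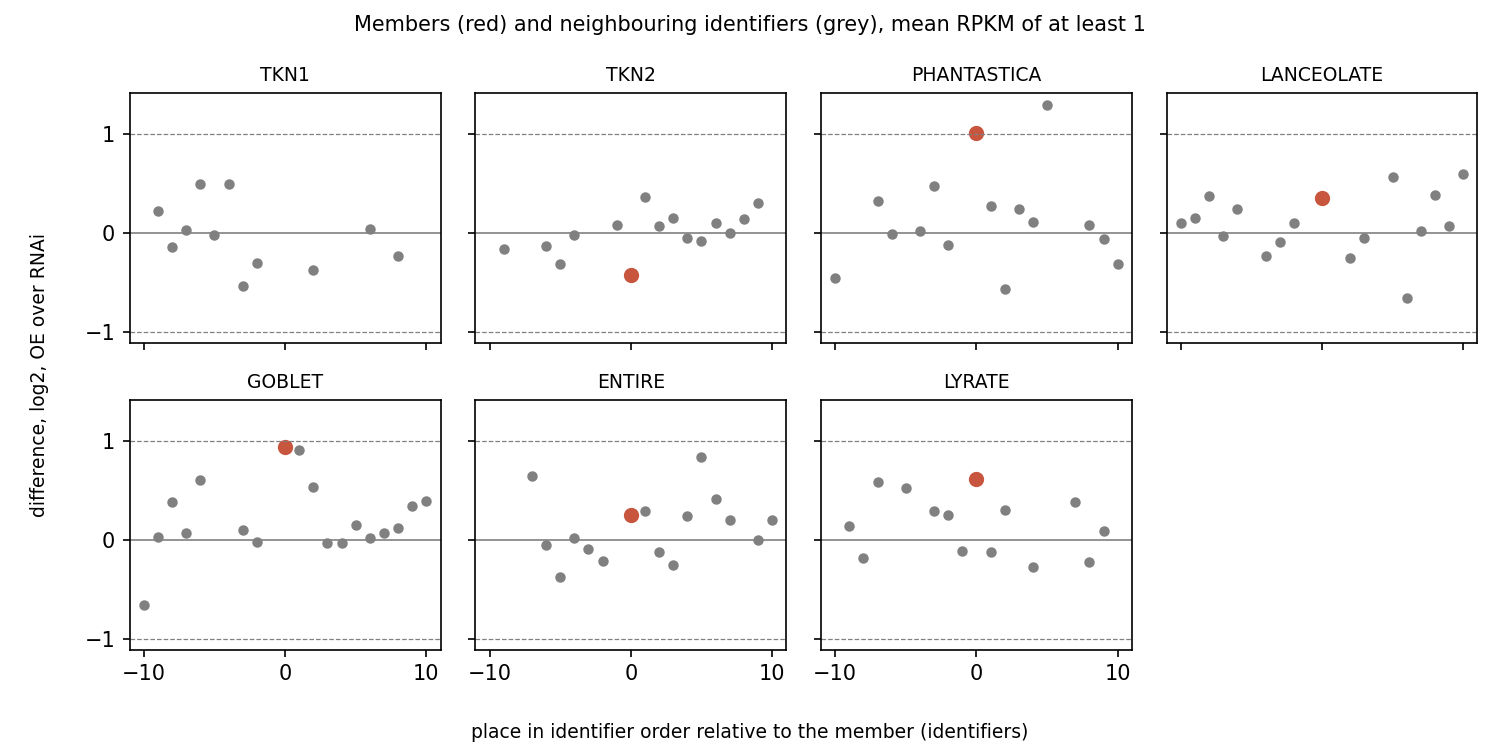
Log2 difference, overexpression over RNAi, of each gene (large red point) and of the compared identifiers up to 10 places to either side in identifier order (grey points), with dashed lines at 2-fold; TKN1 has no point of its own because it was under the mean of 1 RPKM. Around PHANTASTICA 1 grey point lies above the 2-fold line, at 1.29, and around the other 6 genes 0 do. That point is a low gene compared through its level in the OE leaf.

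A further list of 18 identifiers, held from general knowledge as tomato loci of leaf, meristem and organ boundary development, was examined beside the 7 genes. No table used here ties these identifiers to names, so they are described without names. Of the 18, 9 reached a mean of 1 RPKM, and 3 were listed at 0 in both libraries. Among the 9 compared, 0 passed 2-fold as higher and 1 as lower in the OE leaf, beside 2.6% and 1.92% of all compared genes. The lower one was Solyc10g079460.1.1, at 3.51 RPKM in the RNAi leaf and 1.12 RPKM in the OE leaf, a log2 difference of -1.09. The median difference of the 9 was 0.15, close to the 0.13 of all compared genes. Of the 9, 6 (66.7%) were above 0, beside 67.8% of all compared genes.

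Markers of the tissue and of other cells were likewise identifiers from general knowledge. The 3 held as Rubisco small subunit loci, markers of photosynthetic leaf cells, were among the most abundant of the table, at 9919 to 25689 RPKM in the RNAi leaf and 8226 to 20710 RPKM in the OE leaf. Their log2 differences lay between -0.32 and -0.27. The 2 held as B-type cyclin-dependent kinase loci, markers of dividing cells, summed to 53.27 RPKM in the RNAi leaf and 84.23 RPKM in the OE leaf, with log2 differences of 0.50 and 0.70. Of the 2 held as markers of the meristem centre, both were listed at 0 in both libraries. The dividing-cell markers were thus higher in the same library as PHANTASTICA, LANCEOLATE, GOBLET, ENTIRE and LYRATE, and TKN2 was not. Of all compared genes, 67.8% were higher in that library, so a shared direction sets these genes little apart. The part of dividing cells in these differences was not tested.

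The direction of each of the 6 differences was the same under the other pseudocounts and scalings run, as is fixed for a pseudocount, while the number past 2-fold was not. With a pseudocount of 0.1, 3 genes were at least 2-fold higher (PHANTASTICA, GOBLET and LYRATE), beside 4.63% of all compared genes. GOBLET and LYRATE were compared through their level in the OE leaf, which favours a rise. That share also covers genes of all levels, while low genes scatter more widely. At a pseudocount of 1, 5.6% and 6.2% of the 500 genes nearest to GOBLET and LYRATE in mean RPKM were at least 2-fold higher. With a pseudocount of 5, after centring and after the trimmed mean, 0 genes were, beside 0.724%, 1.9% and 1.93% of all compared genes. At a 4-fold limit 0 genes were higher, beside 0.493%.

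**Figure D4:**
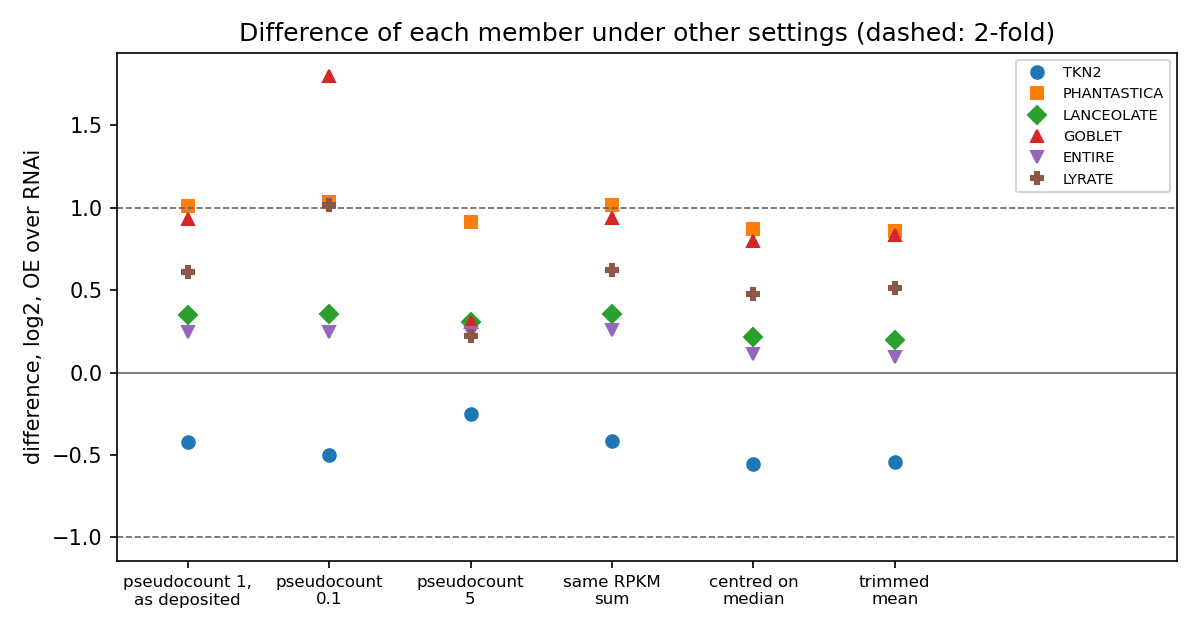
Log2 difference, overexpression over RNAi, of the 6 compared genes (1 marker shape each) under 6 settings named on the horizontal axis; dashed lines mark 2-fold. PHANTASTICA stays between 0.86 and 1.03, around the 2-fold line, GOBLET moves between 0.31 and 1.80 with the pseudocount, and TKN2 stays below 0 in each setting.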

How the data were processed

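The deposited values are RPKM, calculated by the authors and given to 2 decimals with 1 value for each library, per the file headers. Per the submitters' processing notes, TopHat (a spliced aligner) was among the tools; the genome build, annotation, counting program, use of strand and treatment of reads with several matches have no statement in the labels or the file. Read totals are unknown, so no counting interval can be given. Among 2589 genes that reached 0.3 RPKM in each library with a mean up to 1.5, the commonest ratio of overexpression to RNAi was 1.02 in a scan from 0.25 to 4, held within 0.01 (natural log) by 11.0% of them, as libraries of close depth would give.

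Libraries were compared at a pseudocount of 1, a floor of 1 on the mean RPKM and a limit of 2-fold. Nearest genes were the 500 compared genes closest in mean RPKM. All 7 members are named, and of other lists at most 2 genes in each direction past 2-fold. The members and lists were chosen with earlier results of these data known. The member names come with the list; RefSeq (assembly SLM_r2.1, 41476 genes) holds 0 Solyc identifiers but has 6 of the 7 genes by symbol or synonym (as KN1, T6, lanceolate, NAM, IAA9 and LYR), PHANTASTICA aside, and those 6 lie on the chromosome of the identifier. Python 3.11.15, numpy 2.4.6, pandas 2.3.3 and matplotlib 3.10.9 were used. The procedure was tested on simulated data with counting noise only and 4-fold changes in genes of at least 5 RPKM. That test checks the code and does not cover smaller changes, lower genes or variation between plants. Alternatives were 8: pseudocounts of 0.1 and 5, 3 scalings, 2 filters and a 4-fold limit.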

Additional observations from a re-analysis of the deposited data

How the results depend on the processing

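Members at least 2-fold higher numbered 1 as reported and 3 with a pseudocount of 0.1, beside 2.6% and 4.63% of all compared genes. GOBLET and LYRATE were compared through their level in the OE leaf, which favours a rise. With a pseudocount of 5 and after centring on the median 0 were higher, beside 0.724% and 1.9%. After the trimmed mean of ratios and at the 4-fold limit 0 were higher too, beside 1.93% and 0.493%. Members lower numbered 0 under any of the 8 alternatives, beside shares of all genes from 0.509% to 2.94%. Of the further loci, 1 was higher and 1 lower with a pseudocount of 0.1, beside 4.63% and 2.94% of all compared genes. With no filter 1 was higher and 2 lower, beside 1.77% and 1.39% of all gene models. The loci added by dropping the filter had means of 0.87 and 0.82 RPKM. With a pseudocount of 5, with a floor of 5 on the mean RPKM and at the 4-fold limit 0 were lower, beside 0.658%, 1.14% and 0.509% of all compared genes. Of all genes, 901 were higher and 573 lower with a pseudocount of 0.1, 141 and 128 with 5, 222 and 155 with the floor of 5, and 96 and 99 at the 4-fold limit, against 506 and 373 as reported; centring turned the balance to 369 and 482, and the trimmed mean, a log2 shift of -0.15, to 375 and 442. The median difference of the members ranged from 0.27 with a pseudocount of 5 to 0.69 with 0.1. Single members gave 39 values over these settings, and 2, both of GOBLET, shifted further than 1 SD of genes of like level. The 2 filters leave the difference of a gene as it is, so the values under them could not shift. With the floor of 5, TKN2, GOBLET and LYRATE are not compared. Leaving out a replicate leaves an empty group, so it was not run. No paired analysis was possible because each group has a single library.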
